A study of Mus musculus with 8 samples.

Results

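Accessible chromatin was examined at 41 marker genes of the non-parenchymal cells of the mouse liver: 15 macrophage and leukocyte genes, 11 endothelial genes, 9 stellate and mesenchymal genes, 4 biliary genes and 2 lymphocyte genes. Each consensus accessible region was assigned to the protein-coding gene whose span lay nearest, up to 100 kb away, and a region belonged to the set when that gene was a marker. The rule used position alone and no measured level. It selected 106 of 49587 consensus regions, which lay at 28 of the 41 genes. Endothelial genes held 65 of these regions, stellate genes 17, biliary genes 13, macrophage genes 11 and lymphocyte genes 0.

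Open DNA was tagged by transposase insertion (ATAC-seq) in flash-frozen whole liver of male C57BL/6 mice aged 9 weeks and fasted for 24 h. The 4 groups had 2 libraries each: wild type, a liver knockout of Cpt2 (Cpt2 L-/-), a knockout of Ppara (Ppara -/-) and the double knockout (Cpt2 L-/- ;Ppara -/-), whose loss of Ppara the labels describe as whole-body. Cpt2 encodes a mitochondrial enzyme of long-chain fatty acid oxidation, and Ppara encodes a fatty acid-sensing nuclear receptor. Every group was fasted, so no fed reference was compared, and the labels name neither the driver of the Cpt2 deletion nor whether the 2 libraries of a genotype came from separate mice. Wild type and Cpt2 L-/- are called Ppara-intact below, and Ppara -/- and the double knockout are called Ppara-null, with 4 libraries on each side.

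Hepatocytes make up most of the liver's mass. The sinusoids between them are lined by fenestrated endothelial cells and patrolled by Kupffer cells, the resident macrophages. Stellate cells store vitamin A beside the sinusoids and become collagen-producing cells after injury, and cholangiocytes line the bile ducts. A gene that is active in one of these cell types usually has open promoters and enhancers there, and in a whole-liver library those sites are diluted by closed copies from every other cell.

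The values available are peaks called by the authors in each library separately. A region counts as called in a library when a deposited peak overlaps it by at least 1 bp. Each peak carries the authors' fold enrichment over local background and its −log10 p, both in the authors' own scale per library. Both values were higher in Ppara-intact libraries over all called regions: the median −log10 p was 28.9 to 37.1 against 19.96 to 22.9 in Ppara-null libraries, and the median fold 6.63 to 7.52 against 5.69 to 6.13. At 76.4% of the 11258 regions called in all 8 libraries every Ppara-intact −log10 p was above every Ppara-null one, and at 60% every fold was, so that order at a marker region is read against these shares. Libraries held 28733 to 39296 peaks on the Ppara-intact side and 18132 to 22715 on the Ppara-null side, and read totals were not used here. Equal-number lists, which keep the strongest 18132 peaks of each library by −log10 p, are therefore given beside the full lists. The number embedded in the deposited peak names was 441, 443, 446 and 4717 in Ppara-intact libraries and 6831 to 6834 in Ppara-null libraries. The labels do not say what it marks, and a batch effect along it and the Ppara genotype cannot be told apart.

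Marker regions were called less often in Ppara-null livers. The share called was 36.8% and 54.7% in the wild type libraries, 65.1% and 61.3% in Cpt2 L-/-, 15.1% and 13.2% in Ppara -/-, and 17.0% and 12.3% in the double knockout. The lowest Ppara-intact library was above the highest Ppara-null library, so the sides did not overlap. The mean was 54.5% ± 12.55 (SD, n = 4) on the Ppara-intact side and 14.4% ± 2.092 (SD, n = 4) on the Ppara-null side, a difference of -40.1 percentage points. Over all 49587 regions the means were 69.4% and 38.9%, a difference of -30.6 points. The Ppara-null share was 0.264 times the Ppara-intact share at marker regions and 0.560 times over all regions. The members were chosen with earlier results of these data known, so no p-value was computed over them.

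With equal numbers of peaks the difference was -1.415 points at marker regions and -0.686 points over all regions (36.4% against 35.7%). The shares were then 13.2% and 12.3% in wild type, 17.0% and 13.2% in Cpt2 L-/-, 12.3% and 13.2% in Ppara -/-, and 12.3% in both double knockout libraries, so the sides overlapped. The strongest peaks of the Ppara-intact libraries thus held nearly the same share of marker regions as the shorter Ppara-null lists, and most marker peaks of the longer lists lay below that limit. In a library the median marker peak stood at percentile 25.8 to 35.2 of its own list by −log10 p on the Ppara-intact side and at percentile 30.3 to 43.2 on the Ppara-null side. In the same libraries the median peak at 15 hepatocyte genes, such as Alb and Hnf4a, stood at percentile 57.7 to 66.9 and 46.2 to 59.2. In whole tissue, fewer cells of a type and less open chromatin per cell cannot be told apart. The part of list length in the difference was not tested beyond the equal-number lists.

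**Figure D1:**
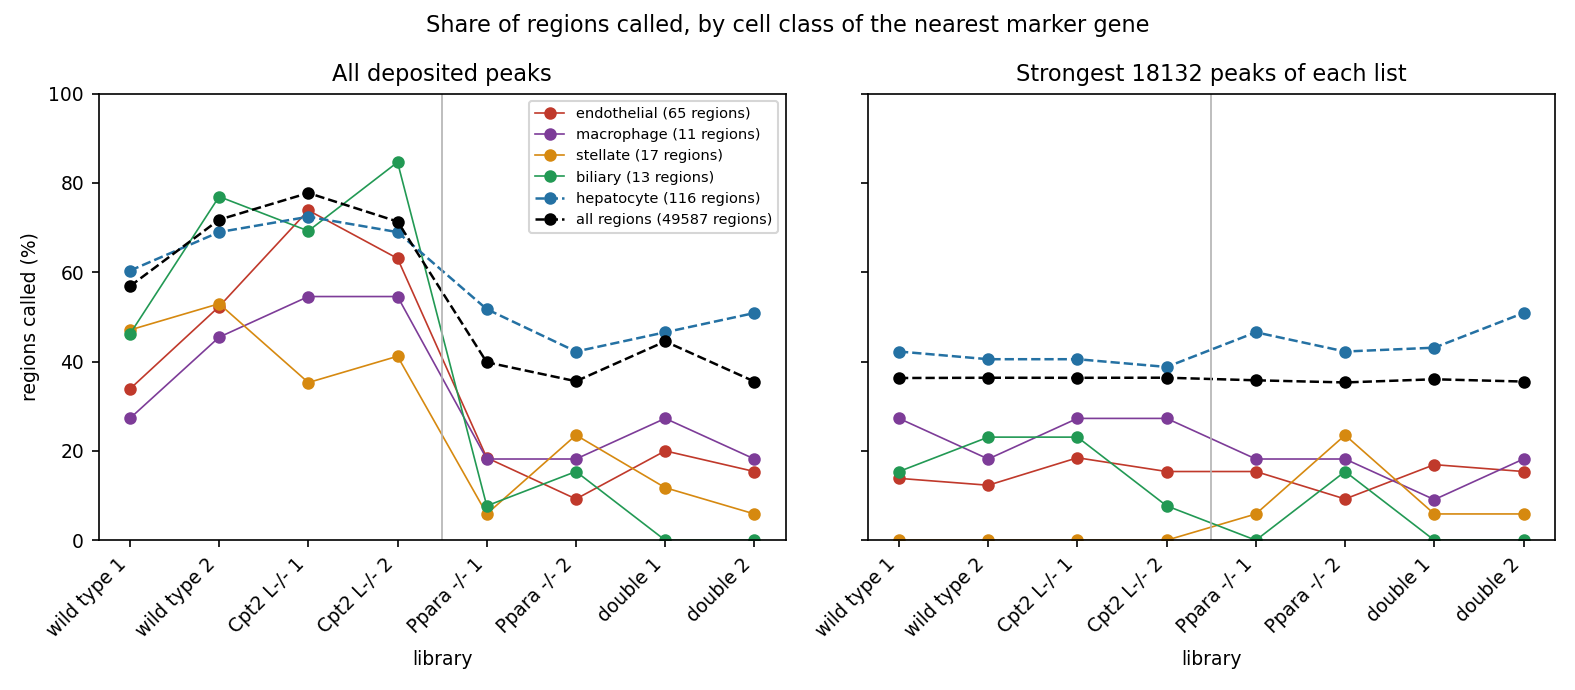
Share of consensus regions called (y axis, percent) in each of the 8 libraries (x axis) by class of the nearest gene, with 1 point per library and lines only to guide the eye; left, all deposited peaks, and right, the strongest 18132 of each list. On the left biliary regions are at 46.2% to 84.6% in Ppara-intact libraries, 7.69% and 15.4% in Ppara -/- and 0% in the double knockout. All regions are at 44.5% and 35.5% in the double knockout. On the right stellate regions are at 0% in all 4 Ppara-intact libraries, and all regions at 36.3% to 36.4%.

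Hepatocyte regions gave a reference for the main cell type. The share of 116 regions at 15 hepatocyte genes that was called averaged 67.7% on the Ppara-intact side and 47.8% on the Ppara-null side, a difference of -19.8 points, and 32 of them (27.6%) were called in all 8 libraries. Of the 106 marker regions, 5 (4.72%) were called in all 8 libraries, against 22.7% of all regions. At the other end, 39 marker regions (36.8%) were called in 1 library alone, against 23.0% of all regions. Of these 39, 36 were seen in a Ppara-intact library, 2, 9, 14 and 11 in the wild type and Cpt2 L-/- libraries in order, and 3 in a Ppara-null library. Over all regions, 11411 were called in 1 library alone, and most of these calls were also in Ppara-intact libraries. They were 849, 2206, 3582 and 2534 in the Ppara-intact libraries and 366, 485, 853 and 536 in the Ppara-null libraries. Marker regions were thus thinner in calls than all regions and than hepatocyte regions in these lists.

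**Figure D2:**
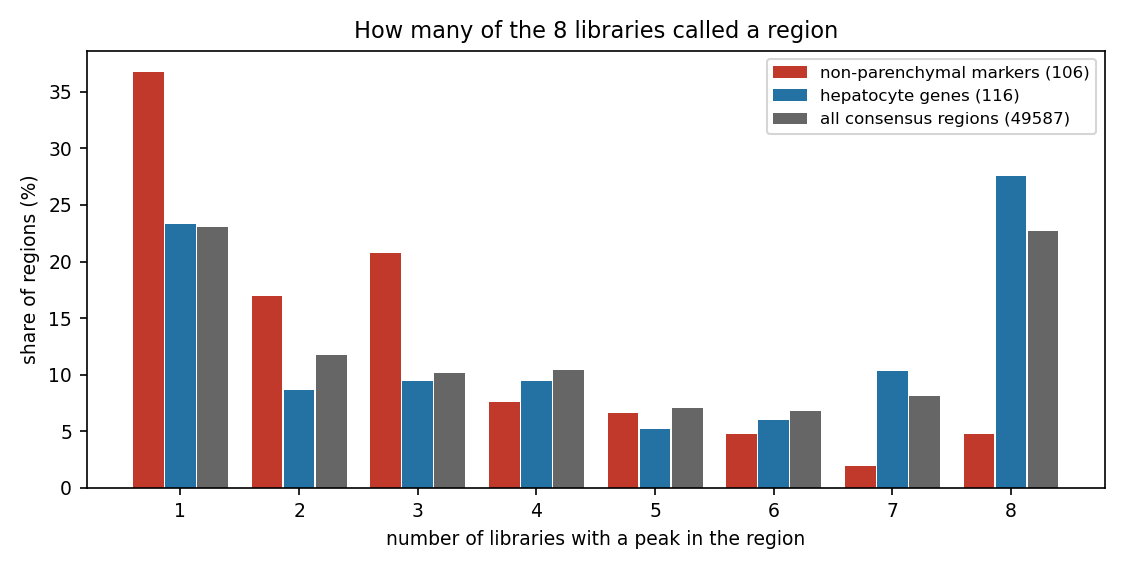
Share of regions (y axis, percent) by the number of libraries that called them (x axis, 1 to 8), for marker regions, hepatocyte regions and all regions. Marker regions pile up at 1 library (36.8%), and 4.72% of them reach all 8.

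A further list of 68 non-parenchymal genes, among them Stab1, Flt1, Pdgfra and Krt7, gave values near those of the markers. It had 136 regions at 47 genes, called at a mean of 55.7% on the Ppara-intact side and 19.1% on the Ppara-null side, a difference of -36.6 points that became 1.103 points with equal-number lists. Over all regions these differences were -30.6 and -0.686 points. Of the regions on this further list, 11 (8.09%) had calls in the 4 Ppara-intact libraries and none in the others, against 6.82% of all regions. The opposite pattern held for 0, against 0.0686% of all regions. That list, too, was written with earlier results of these data known.

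Separation by Ppara genotype means a call in all 4 libraries of one side and in none of the other. It held for 5 marker regions on the Ppara-intact side, or 4.72% of the 106, and the background over all 49587 regions was 6.82%. No marker region was called in all 4 Ppara-null libraries alone (background 0.0686%). The strict count at markers was therefore below the background, although in the full lists their share of calls differed more between the sides than that of all regions. The count rested on wild type replicate 1, which had the shortest Ppara-intact list: without it 17 regions (16.0%) were separated, against 11.8% of all regions. The count was 8 without Cpt2 L-/- replicate 2 (background 8.24%) and 8 without Ppara -/- replicate 2 (background 7.84%). With equal-number lists it was 0, against 0.811% of all regions, and within 5 kb of the gene it was 2 of 75, against 6.66% of all regions so placed.

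The 5 separated regions lay at Pecam1, Lhx2 and Sox9. Another way to count, a call in at least 1 Ppara-intact and in no Ppara-null library, took in 74 marker regions (69.8%) against 42.3% of all regions. A call in at least 1 Ppara-null and in no Ppara-intact library held for 4 (3.77%) against 5.43%. The remaining 28 (26.4%) were called on both sides, against 52.3% of all regions.

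**Figure D3:**
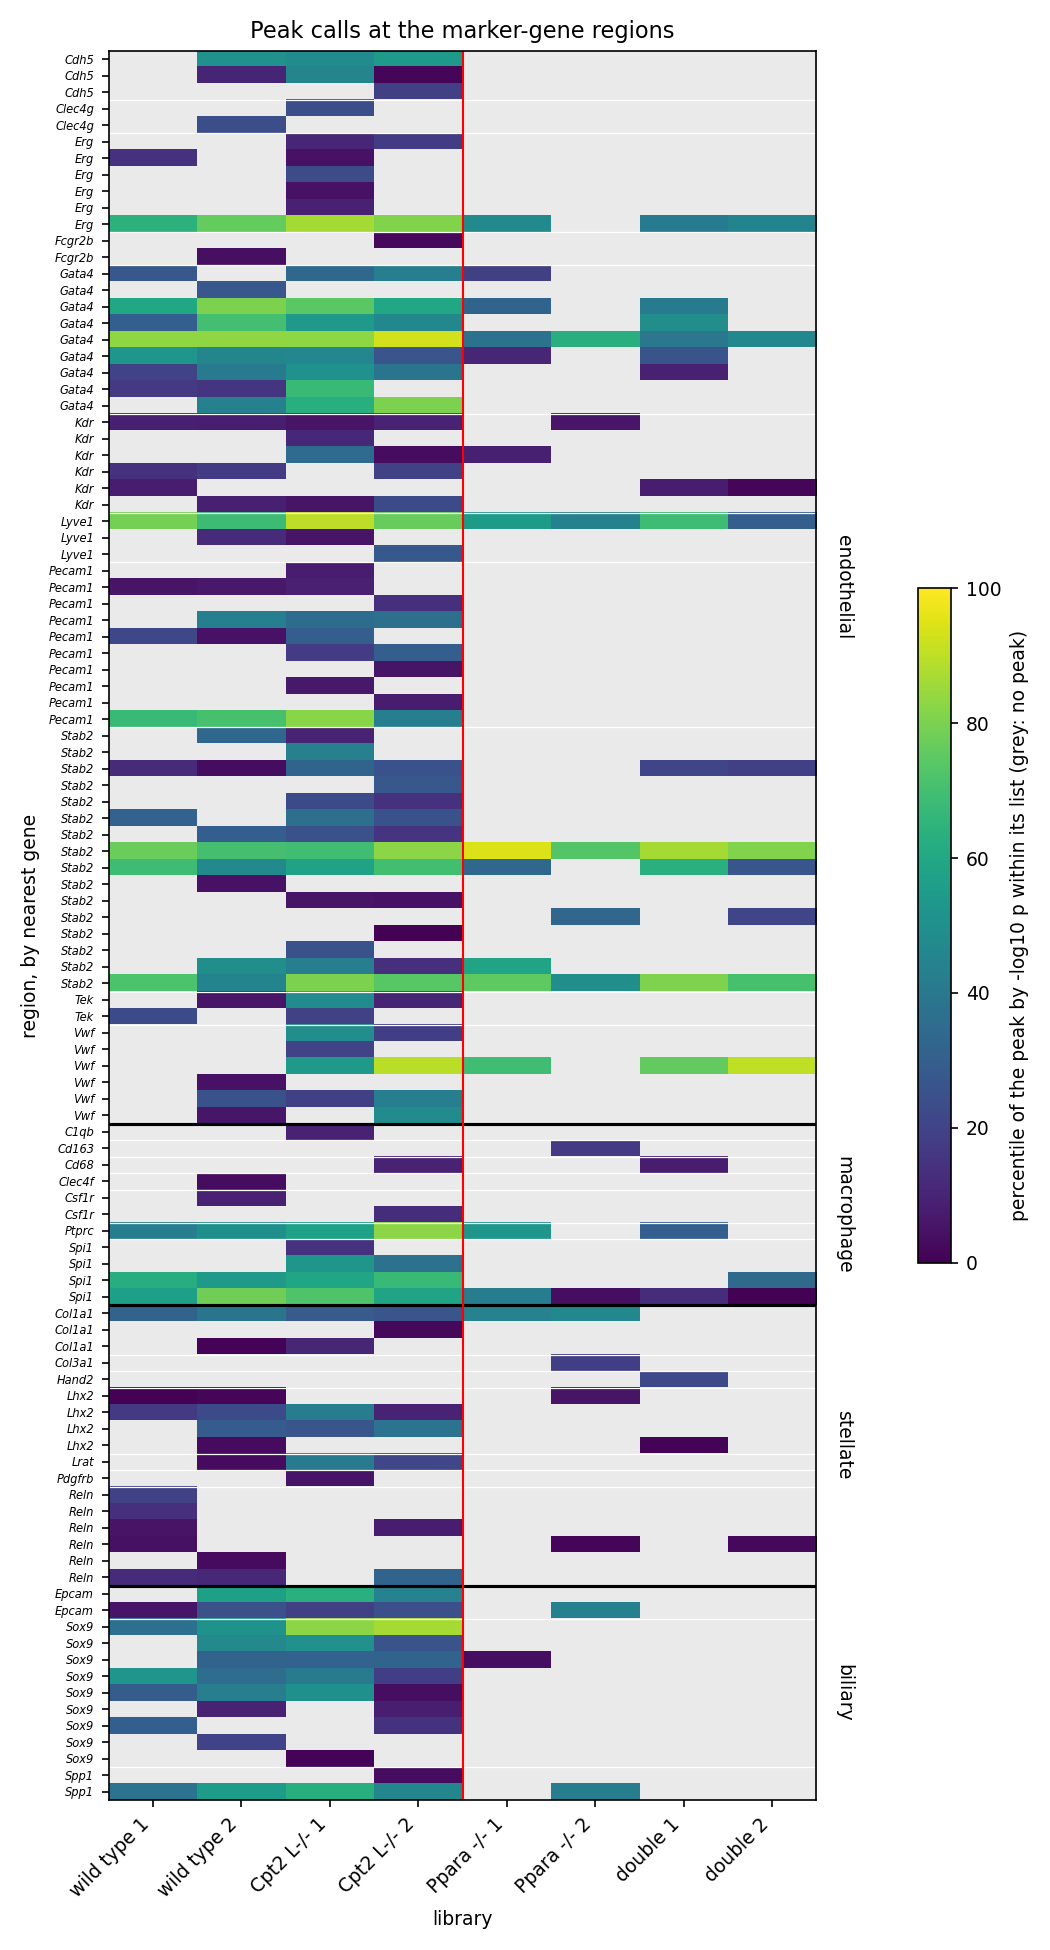
Calls at the 106 marker regions (y axis, by cell class and nearest gene) in the 8 libraries (x axis). Colour is the percentile of the peak by −log10 p within its own list, grey means no peak, and the red line parts Ppara-intact from Ppara-null libraries. The 13 biliary regions are grey in both double knockout libraries, which called 44.5% and 35.5% of all regions.

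Endothelial genes carried most of the set. All 11 had at least 1 region, and the gene with most was Stab2, a scavenger receptor of sinusoidal endothelium, with 16. Pecam1 had 10, Gata4 9, Kdr, Vwf and Erg 6 each, Cdh5 and Lyve1 3 each, and Tek, Clec4g and Fcgr2b 2 each. The 65 regions were called at 33.9% and 52.3% in wild type, 73.8% and 63.1% in Cpt2 L-/-, 18.5% and 9.23% in Ppara -/-, and 20% and 15.4% in the double knockout. The Ppara-intact mean of 55.8% ± 17.06 (SD, n = 4) compared with 15.8% ± 4.763 (SD, n = 4). The sides did not overlap, and neither did those of all regions (56.9% to 77.7% against 35.5% to 44.5%). With equal-number lists the difference of -40.0 points was -0.769, near the -0.686 of all regions.

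Stab2 held the markers' most uniform regions. The region at chr10:86923598-86924090 (mm10), inside the gene, was called in all 8 libraries. Its −log10 p was 54.6 and 61.1 in wild type, 56.6 and 72.3 in Cpt2 L-/-, 61.2 and 28.3 in Ppara -/-, and 50.4 and 37.1 in the double knockout, with folds of 7.205 to 12.31. Ppara -/- replicate 2 was lowest and the sides overlapped, since Ppara -/- replicate 1 lay above wild type replicate 2. A second region, chr10:87032736-87033189, lay 24698 bp outside the gene and was also called in every library. Its −log10 p was 47.0 and 32.4 in wild type, 78.4 and 56.9 in Cpt2 L-/-, 32.4 and 19.4 in Ppara -/-, and 41.3 and 29.7 in the double knockout, again with overlapping sides. A further region, chr10:86947525-86947962, was missed only in Ppara -/- replicate 2. Of the other 13 Stab2 regions, 10 were called in Ppara-intact libraries alone, 5 of them in 1 library. That pattern held for 72.3% of endothelial regions and 42.3% of all regions. The region chr10:86974252-86974504 was called only in Ppara -/- replicate 2 and double knockout replicate 2. The Stab2 region nearest a gene end, chr10:86847012-86847283, was called in wild type replicate 2 (−log10 p 25.1) and Cpt2 L-/- replicate 1 (14.4). A gene end, here and below, is either end of the gene span and need not be the start.

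**Figure D4:**
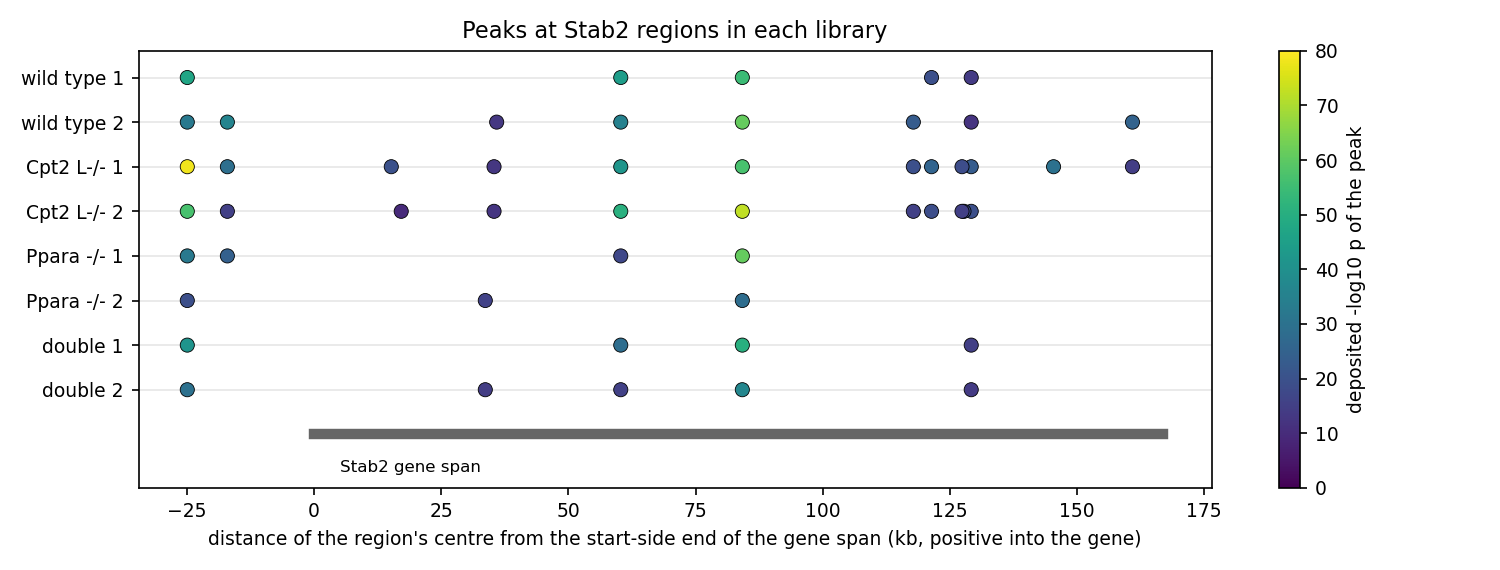
Peaks at the 16 Stab2 regions in each library (y axis) by the distance of the region's centre from the start-side end of the gene span (x axis, kb, positive into the gene), coloured by deposited −log10 p; the grey bar is the gene. The columns of points present in all 8 libraries carry −log10 p of 19.4 to 78.4, and 10 of the 16 regions have points in Ppara-intact libraries alone. Over all regions 42.3% were called in Ppara-intact libraries alone.

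Gata4, a transcription factor of sinusoidal endothelium that is also expressed in other liver cells, had a region called everywhere, chr14:63245092-63245878, inside the gene. Its −log10 p was 67.1 and 90.1 in wild type, 86.7 and 108.4 in Cpt2 L-/-, 17.9 and 23.4 in Ppara -/-, and 19.2 and 19.96 in the double knockout. Every Ppara-intact library was above every Ppara-null library, also in fold (9.494 to 10.88 against 5.541 to 6.104). That order held at 3 of the 5 marker regions called in all 8 libraries, those of Gata4, Lyve1 and Spi1, and is the common one over all such regions (76.4% by −log10 p, 60% by fold). The opposite order held at 0 of the 5 (background 0.329% by −log10 p and 0.222% by fold). The Gata4 region was called in all 8 equal-number lists. The Gata4 region nearest a gene end, chr14:63207069-63207409, was called with −log10 p of 18.2 in wild type replicate 1, 23.8 and 27.2 in Cpt2 L-/-, and 14.3 in Ppara -/- replicate 1.

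Lyve1, a hyaluronan receptor of sinusoidal and lymphatic endothelium, had a region 1826 bp outside the gene at chr7:110848355-110848781 that all 8 libraries called. Its −log10 p was 58.4 and 57.9 in wild type, 113.1 and 61.2 in Cpt2 L-/-, 22.7 and 18.1 in Ppara -/-, and 31.5 and 16.1 in the double knockout, with the same order of sides as 76.4% of all regions called throughout. Erg encodes an ETS factor that maintains endothelial identity. Its region at chr16:95636546-95637018, 49946 bp outside the gene, had −log10 p of 39.1 and 72.5 in wild type, 98.6 and 69.5 in Cpt2 L-/-, 20.6 in Ppara -/- replicate 1, and 19.4 and 19.5 in the double knockout. It was not called in Ppara -/- replicate 2. The Erg region nearest a gene end, chr16:95585365-95585634, was called only in Cpt2 L-/- replicate 1 (12.4), and the corresponding Clec4g region, chr8:3718580-3718876, only in wild type replicate 2 (20.3). Clec4g encodes a lectin of liver sinusoidal endothelium.

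Pecam1, which encodes the junction protein CD31, differed from Stab2 in that none of its 10 regions was called in any Ppara-null library. The same held for Tek, Cdh5, Clec4g and Fcgr2b, each with fewer regions. Of the 10 Pecam1 regions, 5 were called in 1 library alone. Calls in Ppara-intact libraries alone were made at 72.3% of endothelial regions and 42.3% of all regions. The separated Pecam1 region, chr11:106728351-106728757, lay 13070 bp outside the gene, with −log10 p of 42.7 and 62.0 in wild type and 83.7 and 27.2 in Cpt2 L-/-. With equal-number lists it was called in 3 Ppara-intact libraries and no Ppara-null library. Vwf, the clotting factor of larger vessels, went another way at chr6:125574994-125575442, inside the gene. That region was called in neither wild type library, in Cpt2 L-/- at 38.1 and 92.6, in Ppara -/- replicate 1 at 29.1, and in the double knockout at 36.8 and 51.5. It was the marker region called in both double knockout libraries and in neither wild type library.

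**Figure D5:**
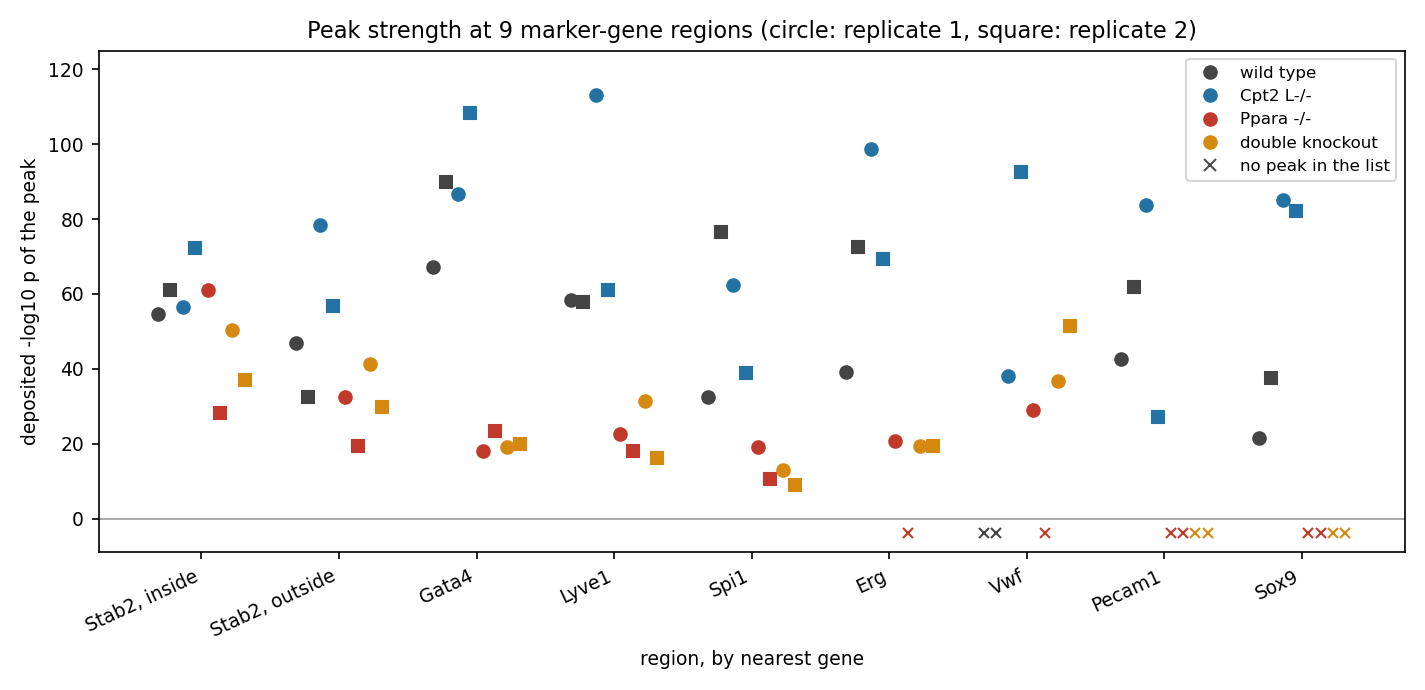
Deposited −log10 p (y axis) of the peaks at 9 regions of 8 marker genes, for each gene the region called in most libraries and for Stab2 the first 2; circles are replicate 1, squares replicate 2, colours genotypes, and crosses under the zero line mark libraries with no peak. Both Stab2 regions overlap between the Ppara sides, while at Gata4 the Ppara-intact values of 67.1 to 108.4 lie above the Ppara-null values of 17.9 to 23.4, an order found at 76.4% of all regions called in all 8 libraries.

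Macrophage and leukocyte genes were thinly covered. Of 15 genes, 8 had no region by the rule: Adgre1, Marco, Cd5l, Timd4, Vsig4, C1qa, C1qc and Lyz2. Among them are Adgre1 (F4/80) and the Kupffer cell genes Timd4, Vsig4 and Cd5l. The other 7 were Spi1 with 4 regions, Csf1r with 2, and Clec4f, Cd68, Ptprc, C1qb and Cd163 with 1 each. The 11 regions were called at 27.3% and 45.5% in wild type, 54.5% in both Cpt2 L-/- libraries, 18.2% in both Ppara -/- libraries, and 27.3% and 18.2% in the double knockout. Wild type replicate 1 equalled double knockout replicate 1 at 3 of 11 regions. The means were 45.5% ± 12.86 and 20.5% ± 4.545 (SD, n = 4 each), a difference of -25.0 points that was -9.09 with equal-number lists. The same differences over all regions were -30.6 and -0.686 points, so in the full lists the macrophage one was the smaller.

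Spi1 encodes PU.1, the factor that specifies myeloid cells. Its region at an end of the gene span, chr2:91115033-91115575, was the macrophage region called in all 8 libraries. The −log10 p was 32.6 and 76.5 in wild type, 62.3 and 39.0 in Cpt2 L-/-, 19.1 and 10.4 in Ppara -/-, and 13.1 and 9.0 in the double knockout. Each Ppara-intact value was above each Ppara-null value, as at 76.4% of all regions called in every library, and folds ran from 5.806 to 10.44 against 3.432 to 5.164. With equal-number lists double knockout replicate 1 no longer called it. Inside the gene, chr2:91109276-91109625 was called only in the Cpt2 L-/- libraries, at 36.5 and 24.2. Its neighbour, chr2:91109766-91110276, was called in all Ppara-intact libraries at 37.5, 40.2, 43.2 and 48.1 and in double knockout replicate 2 at 16.9.

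Ptprc encodes CD45, the surface phosphatase of all leukocytes. Its region, chr1:138209773-138210175, lay 34017 bp outside the gene and had −log10 p of 24.4 and 36.5 in wild type, 41.3 and 72.3 in Cpt2 L-/-, 22.0 in Ppara -/- replicate 1 and 16.6 in double knockout replicate 1. The other Ppara -/- and double knockout libraries did not call it. Clec4f, a lectin of Kupffer cells, had 1 region, chr6:83614803-83615082, 29460 bp outside the gene and called in wild type replicate 2 alone (12.2). The Cd163 region was called in Ppara -/- replicate 2 alone (13.2), and the region at Cd68 in Cpt2 L-/- replicate 2 (13.9) and double knockout replicate 1 (11.8). Apart from Spi1 and Ptprc, each macrophage region was thus called in at most 2 libraries.

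C1qb, a complement subunit made by macrophages, had its region over its promoter, and the sequence is shown because the sole call there covers most of it. The region, chr4:136886073-136886427, was called in Cpt2 L-/- replicate 1 alone, with −log10 p 14.4 and fold 5.063. The 250 bases upstream of the C1qb start (chr4:136886201-136886450, minus strand, GRCm38.p6, RefSeq) follow 5′ to 3′, with the bases inside the region in capitals.
C1qb: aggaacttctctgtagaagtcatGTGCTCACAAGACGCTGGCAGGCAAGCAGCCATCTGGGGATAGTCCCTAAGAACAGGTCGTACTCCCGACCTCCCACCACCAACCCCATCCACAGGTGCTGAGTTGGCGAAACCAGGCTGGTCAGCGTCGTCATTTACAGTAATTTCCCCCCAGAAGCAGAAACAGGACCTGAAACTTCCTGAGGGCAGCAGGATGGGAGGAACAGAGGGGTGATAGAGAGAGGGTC
Its GC content was 55.2%, near the median of 52.4% over 32851 such windows.

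Stellate and mesenchymal genes had 17 regions at 7 of 9 genes. Des and Dcn had none, while Reln had 6, Lhx2 4, Col1a1 3, and Lrat, Pdgfrb, Col3a1 and Hand2 1 each. The regions were called at 47.1% and 52.9% in wild type, 35.3% and 41.2% in Cpt2 L-/-, 5.88% and 23.5% in Ppara -/-, and 11.8% and 5.88% in the double knockout. The means were 44.1% ± 7.594 and 11.8% ± 8.319 (SD, n = 4 each), a difference of -32.4 points without overlap of the sides. The difference over all regions was near it, at -30.6 points, and also without overlap. With equal-number lists the direction turned, to 0% against 10.3%, since no stellate region was among the strongest 18132 peaks of any Ppara-intact library. No stellate region was called in all 8 libraries, against 22.7% of all regions.

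Lrat encodes the enzyme that esterifies retinol for storage, and its region at the gene end, chr3:82903729-82904157, was called at −log10 p 11.6 in wild type replicate 2 and 28.2 and 17.5 in Cpt2 L-/-. Wild type replicate 1 and the 4 Ppara-null libraries did not call it. Reln encodes a secreted protein of stellate cells, and its region chr5:22344646-22345146 was called at 13.7 and 15.4 in wild type and 22.1 in Cpt2 L-/- replicate 2. Lhx2, a homeobox factor that restrains stellate cell activation, held the separated region of the class, chr2:38350862-38351298, at 15.0 and 19.5 in wild type and 28.5 and 14.0 in Cpt2 L-/-. With equal-number lists no library called that region. A Lhx2 region at the gene end, chr2:38339042-38339647, had the other order between wild type and Cpt2 L-/-, with calls in both wild type libraries (9.27 and 10.8) and in Ppara -/- replicate 2 (10.8).

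The upstream windows of these 3 genes are shown because called regions covered 183 to 250 of their 250 bases, and because the regions over them were called in Ppara-intact libraries alone. Lhx2 has another upstream window, under its region at the gene end, for which this does not hold, since Ppara -/- replicate 2 called that region. Being called in Ppara-intact libraries alone is common, at 64.7% of stellate regions and 42.3% of all regions. With equal-number lists no library called any of the 3 regions over the windows shown. Capitals mark the bases inside the called region, and each window is written 5′ to 3′ on the gene's strand from RefSeq on GRCm38.p6. The Lrat window is chr3:82903975-82904224 (minus strand), the Reln window chr5:22344706-22344955 (minus strand) and the Lhx2 window chr2:38351058-38351307 (plus strand).
Lrat: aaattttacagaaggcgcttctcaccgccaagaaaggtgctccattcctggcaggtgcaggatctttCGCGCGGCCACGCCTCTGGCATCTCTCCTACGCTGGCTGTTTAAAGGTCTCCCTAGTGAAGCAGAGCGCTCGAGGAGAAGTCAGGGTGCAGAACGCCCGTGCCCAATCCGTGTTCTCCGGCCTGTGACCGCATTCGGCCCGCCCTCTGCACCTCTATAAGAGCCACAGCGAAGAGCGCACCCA
Reln: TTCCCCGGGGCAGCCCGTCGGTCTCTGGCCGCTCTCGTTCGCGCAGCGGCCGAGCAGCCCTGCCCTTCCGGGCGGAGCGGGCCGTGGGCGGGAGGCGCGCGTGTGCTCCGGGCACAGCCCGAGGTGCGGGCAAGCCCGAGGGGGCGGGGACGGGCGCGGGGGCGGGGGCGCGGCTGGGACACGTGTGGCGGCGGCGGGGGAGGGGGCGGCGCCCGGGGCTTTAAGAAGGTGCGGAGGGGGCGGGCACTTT
Lhx2: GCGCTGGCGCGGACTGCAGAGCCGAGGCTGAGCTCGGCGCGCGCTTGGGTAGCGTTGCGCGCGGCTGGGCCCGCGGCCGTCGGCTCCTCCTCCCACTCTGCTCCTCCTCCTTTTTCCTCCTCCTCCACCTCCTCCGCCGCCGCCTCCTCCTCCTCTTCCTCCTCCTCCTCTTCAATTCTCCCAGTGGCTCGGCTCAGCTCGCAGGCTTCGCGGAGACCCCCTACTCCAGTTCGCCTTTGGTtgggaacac
GC content was 59.2% at Lrat, 80% at Reln and 68.4% at Lhx2, each above the median of 52.4% over all windows. The windows were searched on both strands for short motifs of transcription factors. The first was AGATAA, which GATA factors bind and which 9.99% of all windows of this length held. The ETS letters CCGGAA were in 12% of all windows. AP-1 was searched as TGANTCA, found in 6.75% of all windows. The last was TATAAA, the core promoter's TATA box, in 12.4% of all. Of these, the ETS letters were found in the Reln window, as TTCCGG at position -185 from the start. No match elsewhere says only that these letters are not in these windows.

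Other stellate regions had few calls. The Col1a1 region at chr11:94915711-94916045, 20179 bp outside this fibrillar collagen gene, was called in all wild type, Cpt2 L-/- and Ppara -/- libraries, with −log10 p of 18.7 to 28.2, and in neither double knockout library. Hand2 and Col3a1 each had a region called in 1 Ppara-null library alone: chr8:57230682-57230889, 90094 bp outside Hand2, in double knockout replicate 1 (14.9), and the Col3a1 region in Ppara -/- replicate 2 (13.2). Hand2 encodes a mesenchymal transcription factor, and at that distance the assignment rests on the nearest-gene rule alone.

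Biliary genes had the widest difference in share of the 4 marker classes with regions. Sox9 had 9 regions, Epcam 2 and Spp1 2, and Krt19, a keratin of cholangiocytes, had none. The 13 regions were called at 46.2% and 76.9% in wild type and 69.2% and 84.6% in Cpt2 L-/-, against 7.69% and 15.4% in Ppara -/-. Both double knockout libraries called 0 of 13, beside 44.5% and 35.5% of all regions. The biliary means were 69.2% ± 16.62 and 5.77% ± 7.365 (SD, n = 4 each), a difference of -63.5 points without overlap, beside -30.6 points over all regions. The further biliary genes, with 29 regions at 6 genes, had a smaller difference of -40.5 points and were called at 24.1% and 17.2% in the double knockout. At the 13 marker regions the difference with equal-number lists was -13.5 points, from 17.3% against 3.85%, beside -0.686 points over all regions. The biliary sides then overlapped, with 15.4% in Ppara -/- replicate 2 and 7.69% in Cpt2 L-/- replicate 2. The differences between classes were not tested.

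Sox9 encodes a transcription factor of bile duct cells that is also found in some hepatocytes near the portal tract. It held 3 of the 5 separated regions, and 6.82% of all regions were separated in the same way. At chr11:112720497-112721017, 61193 bp outside the gene, −log10 p was 21.6 and 37.5 in wild type and 85.2 and 82.1 in Cpt2 L-/-. At chr11:112739712-112740037, 42173 bp outside, it was 29.8 and 26.1 in wild type and 28.2 and 16.6 in Cpt2 L-/-. At the gene end, chr11:112781902-112782605, it was 18.9 and 30.7 in wild type and 34.7 and 11.9 in Cpt2 L-/-. For the regions at 61193 and 42173 bp the assignment rests on the nearest-gene rule alone. Of the 9 Sox9 regions, 1 was called in a Ppara-null library, chr11:112732107-112732878 in Ppara -/- replicate 1 (10.9). Among biliary regions 76.9% were called in Ppara-intact libraries alone, and among all regions 42.3%. With equal-number lists the first of the 3 separated regions was called in 3 Ppara-intact libraries, the second in wild type replicate 1 alone, and the third in none. Separation in those lists held for 0 marker regions and for 0.811% of all regions.

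Epcam, an adhesion protein of biliary epithelium, had its region at the gene end, chr17:87636556-87637076, called at −log10 p 11.8 and 20.4 in wild type, 17.5 and 18.8 in Cpt2 L-/- and 18.1 in Ppara -/- replicate 2. Spp1, which encodes osteopontin, had a region 5176 bp outside the gene with the same pattern of calls, at 22.2 and 41.2 in wild type, 48.1 and 29.2 in Cpt2 L-/- and 17.5 in Ppara -/- replicate 2. The T cell gene Cd3e and the B cell gene Cd79a, the lymphocyte markers, had no region.

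Pairs of genotypes were compared by the regions that both libraries of a genotype called and neither library of its partner did; these counts were not tested. Pairs that share a genotype share its libraries. Between Cpt2 L-/- and wild type, 8 marker regions (7.55%) were called in Cpt2 L-/- only (background 3.63%) and 1 in wild type only (background 0.512%). Of the 8, 7 were endothelial, at Erg, Kdr, Pecam1, Stab2 and Vwf, and 1 lay at Spi1; the wild type region was at Lhx2. The count depended on the library: without wild type replicate 1 there were 10 in Cpt2 L-/- only and 11 in wild type only, which turned the direction, as it did over all regions (5% and 5.37%). Without the other 3 libraries in turn there were 20 to 22 and 3 to 5, with backgrounds of 9.83% to 12% and 1.21% to 2.78%. Of the 8, 6 were called in no other genotype: those at Spi1, Erg, Pecam1, Vwf and 2 at Stab2, which is 5.66% of marker regions against a background of 2.69%. The Vwf region of this kind, chr6:125538570-125538904, had −log10 p of 33.4 and 16.6, and the Pecam1 region, chr11:106675266-106675660, 16.9 and 21.0. No marker region was called in both libraries of wild type alone (background 0.379%), Ppara -/- alone (0.0645%) or the double knockout alone (0.248%).

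Against wild type, 14 marker regions (13.2%) were called in wild type and not in Ppara -/- (background 13.6%), and 0 the other way (background 0.46%). For the double knockout, 15 (14.2%) were called in wild type only (background 12.9%) and 1, at Vwf, in the double knockout only (background 1.2%). These shares lay near the background. Leaving out wild type replicate 1 raised them to 41 (38.7%, background 29.8%) and 43 (40.6%, background 29.6%). For Ppara -/- the count was 22 (20.75%, background 17.7%) without wild type replicate 2. Without Ppara -/- replicate 1 it was 19 (17.9%, background 20.9%), with 3 the other way (2.83%, background 2.17%). Between the double knockout and Cpt2 L-/-, 32 marker regions (30.2%) were called in Cpt2 L-/- only, above the background of 20.4%, and 1 in the double knockout only, at Kdr (background 0.597%). The 32 comprised 19 endothelial, 8 biliary, 4 stellate and 1 macrophage region. Leaving out a Cpt2 L-/- replicate raised the 32 to 49 or 54, by construction, with backgrounds of 28.4% and 34.5%; with equal-number lists 2 were left.

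The double knockout and Ppara -/- differed at 3 marker regions. Regions at Stab2 and Kdr were called in the double knockout only (2, or 1.89%, background 2.33%), and the Col1a1 region above in Ppara -/- only (1, or 0.943%, background 1.45%). Without Ppara -/- replicate 1 the direction turned, to 7 regions in Ppara -/- only (background 4.85%) and 5 in the double knockout only (background 6.2%). It also turned without Ppara -/- replicate 2, to 5 (background 5.41%) and 2 (background 3.81%). Without double knockout replicate 2 there were 7 in the double knockout only (background 8.48%).

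By Cpt2 genotype over all 8 libraries, no marker region was called in all 4 Cpt2-intact libraries alone (background 0.00605%) or in all 4 Cpt2-null libraries alone (background 0.0968%). The share of marker regions called averaged 29.9% with Cpt2 intact and 38.9% with Cpt2 deleted, a difference of 8.96 points that was 0.236 to 17.9 when each library was left out in turn. Over all regions the means were 51.0% and 57.3%, a difference of 6.26 points. The 17 stellate marker regions had the other sign, -8.82 points, while the 19 regions of the further stellate genes had 6.58 points.

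The place of the regions was also compared. Of the 106 marker regions, 15 (14.2%) touched the 1 kb around a gene end, 59 (55.7%) elsewhere inside a gene and 32 (30.2%) outside, against 25.8%, 42.0% and 32.3% of all regions. Those at a gene end were called at 55.0% on the Ppara-intact side and 18.3% on the Ppara-null side, while all such regions were called at 84.3% and 60.9%. The median width was 339 bp, against 381 bp over all regions. The share of members with any region, 68.3%, was near the 69.3% of all 21900 protein-coding genes, and the median number of regions at a gene with one was 2 for both.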

How the data were processed

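The data are ATAC-seq peak lists from 8 fasted mouse livers, 2 libraries per genotype. Per the submitters' processing notes, BWA, MACS2 2.1.0 and mm10 were used; how reads were aligned, deduplicated or shifted for Tn5 is not given in the sources used here. Each deposited list gives, per peak, a score, a fold ratio over local background (column 7), a −log10 p (column 8) and a −log10 q (column 9), as the authors' peak caller wrote them, and peaks were called per library. The deposited consensus table gives positions, on mm10 per the file headers, with no signal per region.

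Consensus regions were assigned to the nearest of 21900 protein-coding genes of RefSeq GRCm38.p6 (limit 100 kb), without strand or exons. Gene ends were both ends of the span, whichever held the start. A call is an overlap of at least 1 bp; bedtools 2.31.1 gave the same calls. A percentile is the rank of a peak by −log10 p in its own list. Python 3.11.15, numpy 2.4.6, pandas 2.3.3 and matplotlib 3.10.9 were used, and the calls were tested on simulated data. Because the files hold calls and not counts, no model was fitted, and members are described by counts beside the same over all regions. The members and gene lists were chosen with earlier results of these data known.

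Regions given with values were, per class, up to 3 called in all 8 libraries and up to 3 separated by Ppara genotype, by mean percentile; up to 3 called in 1 genotype alone; and, for 17 defining genes, the region nearest a gene end. Other regions named were chosen after their values were seen. Alternatives were equal-number lists, a −log10 q of at least 20, a cover of at least 50%, a limit of 5 kb, the single nearest gene and leaving out each library. Promoter windows were matched for 27 of the 41 genes. Of the hepatocyte list, 15 of 16 genes were matched. Read depth was not used here, so no counting interval is given.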

Additional observations from a re-analysis of the deposited data

Results flagged for a closer look

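The share of macrophage regions called in double knockout replicate 1 stood apart from the other Ppara-null libraries. It was 27.27% (3 of 11 regions), while Ppara -/- replicates 1 and 2 and double knockout replicate 2 each had 18.2% (2 of 11). The gap is 1 region of 11, and with the other 3 libraries tied any difference of 1 region stands apart in this way.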

How the results depend on the processing

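With equal-number lists the difference in share called by Ppara genotype was -1.415 points at marker regions, and the direction turned for stellate (10.29), hepatocyte (5.172) and further non-parenchymal regions (1.103). Counts of separated regions in this section sum both directions. They stand without the share over all regions and show only how the counts moved with the setting. With equal-number lists they were 0 by Ppara genotype and 2 for Cpt2 L-/- against wild type. They were 3 for Ppara -/- against wild type, 4 for the double knockout against wild type and 3 against Cpt2 L-/-. The last 3 were 2 in Cpt2 L-/- only and 1 in the double knockout only. With a −log10 q of at least 20 the share difference was -21.46 points at marker regions. Over all regions it was -29.6 points, so in points the marker difference was the smaller. The Ppara-null share was then 0.133 times the Ppara-intact share at marker regions and 0.369 times over all regions. Counts at this q were 3 for Cpt2 L-/- against wild type, 10 for the double knockout against wild type, 17 against Cpt2 L-/- and 0 against Ppara -/-. Within 5 kb of genes the counts were 2 by Ppara genotype, 10 for the double knockout against wild type and 19 against Cpt2 L-/-. By Cpt2 genotype the sign turned for stellate regions at the higher q (1.471) and for biliary regions with equal-number lists (-5.769) and within 5 kb (-8.333). Leaving out 1 library, which raises such counts by construction, gave 5 to 17 by Ppara genotype, 0 to 2 by Cpt2 genotype, 21 to 27 for Cpt2 L-/- against wild type, 20 to 41 for Ppara -/- against wild type, 19 to 45 for the double knockout against wild type, 36 to 55 against Cpt2 L-/- and 4 to 12 against Ppara -/-. The share difference by Ppara genotype was then -45.99 to -36.56 points, and by Cpt2 genotype 0.2358 to 17.85 at marker regions, -13.46 to 15.38 at biliary, -0.6466 to 8.261 at hepatocyte, -2.451 to 14.46 at further and -0.5563 to 13.51 at all regions. Without Cpt2 L-/- replicate 1 the biliary and hepatocyte values were -8.333 and -0.3592, and without Ppara -/- replicates 1 and 2 the biliary values were -7.692 and -5.128. Beyond list length and the number of libraries, the cause was not tested. No paired analysis was possible because the results are counts of calls from no test. The number of peaks per list limits what a missing call can show.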
